A study of Capra hircus with 30 samples.

Results

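KITLG, the ligand also called stem cell factor, and KIT, its receptor tyrosine kinase, were followed in goat granulosa cells, which line the follicle and nurse the oocyte. These 2 genes were found by their NCBI gene numbers (100860807 for KITLG and 100861386 for KIT) among the 20125 features of the deposited table. Values are FPKM, a level scaled to the length of the gene and to the total of the library, so that levels of the 2 genes can be set side by side per length. Total RNA of granulosa cells from ovaries gave 30 libraries. The goats were of the Ji'ning grey breed, and 6 groups had 5 libraries each. High fertility goats (above 3 kids per birth in the series description, with litters of 3 included in the methods) gave HLG from large follicles, HMG from medium follicles and HSG from small follicles. Low fertility goats (below 2, with litters of 2 included in the methods) gave LLG, LMG and LSG from the same 3 sizes. Neither treatments nor genetic changes are given for any group, and ages are not stated. In the methods, follicles of several goats were brought together per class and size, oocytes and granulosa cells were parted by pipetting, and small numbers of granulosa cells went into each sample. The methods describe the granulosa cells of each stage as divided into 5 samples, and no source ties a library to a goat. Hence p-values measure the spread between such samples, which may be technical. They do not measure a spread shown to be between animals. Libraries are named by group and by the number the labels give them (5, 7, 8, 9 or 10).

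KITLG is made by granulosa cells and exists as a membrane-bound and as a shed, soluble protein. KIT is known on oocytes and on theca cells, the outer cell layer of the follicle, and outside the ovary it marks mast cells and pigment cells. Binding of the ligand pairs 2 receptor molecules, switches on the kinase and feeds the PI3K and AKT, RAS and MAPK, and STAT pathways. In rodent ovaries this signal is known for starting the growth of primordial follicles and for keeping oocytes alive, and KITLG has been studied as a candidate gene for litter size in goats.

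The libraries differed widely in content. Between 301 and 9256 features were above 0 FPKM in a library, and the FPKM of all features summed to between 33640 and 82952. A value of 0 is therefore given as listed and not as absence of the RNA, since RPS6, a ribosomal protein gene that all cells use (chosen after its values were seen), was also listed at 0 in 11 of the 30 libraries. Of the granulosa cell markers, 12 of 13 were in the table and all 12 were above 0 in at least 1 library, but they differed widely in how often. GJA1, the main gap junction protein of granulosa cells, was above 0 in 18 libraries and INHBA, an activin subunit, in 14. CYP19A1, the aromatase that makes oestrogen, was above 0 in 10 libraries, whereas FSHR, the follicle stimulating hormone receptor, and AMH were above 0 in 1 library each. INHA, the inhibin subunit, and SERPINE2 were above 0 in 2 each. The remaining markers were INHBB in 10 libraries, FST in 8, NR5A2 in 5, and HSD17B1 and NR5A1 in 3 each. All but GJA1 and INHBA were named outside the rule, which picks the 2 markers seen most often. At least 1 of the 12 markers was above 0 in 25 of the 30 libraries. Lists of theca and interstitial, endothelial and mast cell markers reached 25, 22 and 17 libraries by the same count. Such a count therefore does not tell the labelled cell type from others.

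KITLG was above 0 FPKM in 19 of 30 libraries and KIT in 17. Only 5.62% of all features were above 0 in as many libraries as KITLG, and 9.02% in as many as KIT. The levels were low. The highest KITLG value was 3.12 FPKM and the highest KIT value 2.06 FPKM, both in HSG-8. Among the values above 0 the median was 0.53 FPKM for KITLG and 0.34 FPKM for KIT. By mean FPKM over the 30 libraries, 18.7% of features lay as high as KITLG and 41.9% as high as KIT. Both are long genes, with spans of 107 kb and 82.7 kb in the RefSeq gene table of the assembly ARS1.2. Of the 3164 features with a span of at least 80 kb, 12.5% were above 0 in at least 19 libraries and 20.04% in at least 17, against 4.11% and 6.83% of the shorter ones. The part of gene length in how often the members were above 0 was not tested.

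The ligand was listed at 0 in 3 libraries of HLG, and its other values there were 0.53 FPKM in HLG-9 and 2.75 FPKM in HLG-7. LLG was alike, with 0 in 3 libraries, 0.06 FPKM in LLG-5 and 1.23 FPKM in LLG-8. In medium follicles the ligand was seen more often. HMG held 0, 0.21, 0.41, 0.55 and 2.06 FPKM of KITLG in libraries 8, 10, 9, 7 and 5, and LMG held 0, 0.28, 0.35, 1.88 and 2.19 FPKM in libraries 10, 5, 8, 9 and 7. The 2 medium groups overlapped over nearly their whole range. In small follicles HSG had 0 in 3 libraries, 0.14 FPKM in HSG-7 and 3.12 FPKM in HSG-8. LSG was the one group above 0 in 5 of 5 libraries, but with 0.04 FPKM in both LSG-7 and LSG-8, 0.11 in LSG-9, 0.84 in LSG-5 and 0.92 in LSG-10. HSG thus had the highest single value, whereas LSG had low values in every library. Ordered by their median KITLG level, the groups ran from HMG (0.41 FPKM) and LMG (0.35 FPKM) through LSG (0.11 FPKM) to HLG, LLG and HSG, whose medians were 0. The ranges of all neighbours in this order overlapped.

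The receptor was hardly seen in large follicles of high fertility goats, with 0 in 4 HLG libraries and 0.01 FPKM in HLG-10. That is 20% of HLG libraries above 0, near the 17.7% of HLG values above 0 over all features. LLG held KIT at 0 in 3 libraries, at 0.01 FPKM in LLG-9 and at 0.75 FPKM in LLG-8. Medium follicles again showed the gene more often. KIT was at 0 in HMG-8, 0.01 FPKM in HMG-10, 0.14 in HMG-5, 0.32 in HMG-9 and 0.34 in HMG-7. It was at 0 in LMG-10, 0.31 FPKM in LMG-8, 0.37 in LMG-5, 0.51 in LMG-7 and 0.59 in LMG-9. Hence 3 of the 5 LMG values lay above the highest HMG value. In small follicles HSG held 0 in 2 libraries, 0.02 FPKM in HSG-7, 1.21 in HSG-10 and 2.06 in HSG-8, and LSG held 0 in 2 libraries, 0.09 FPKM in LSG-8, 0.49 in LSG-5 and 0.60 in LSG-7. The 2 highest KIT values were thus in HSG, beside 2 libraries of the same group at 0. By median KIT level the order was LMG (0.37 FPKM), HMG (0.14 FPKM), LSG (0.09 FPKM) and HSG (0.02 FPKM), with HLG and LLG at 0, and the ranges of neighbours overlapped. Of the 17 KIT values above 0, 4 were at 0.02 FPKM or less, close to the smallest step that 2 decimals can show.

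**Figure D1:**
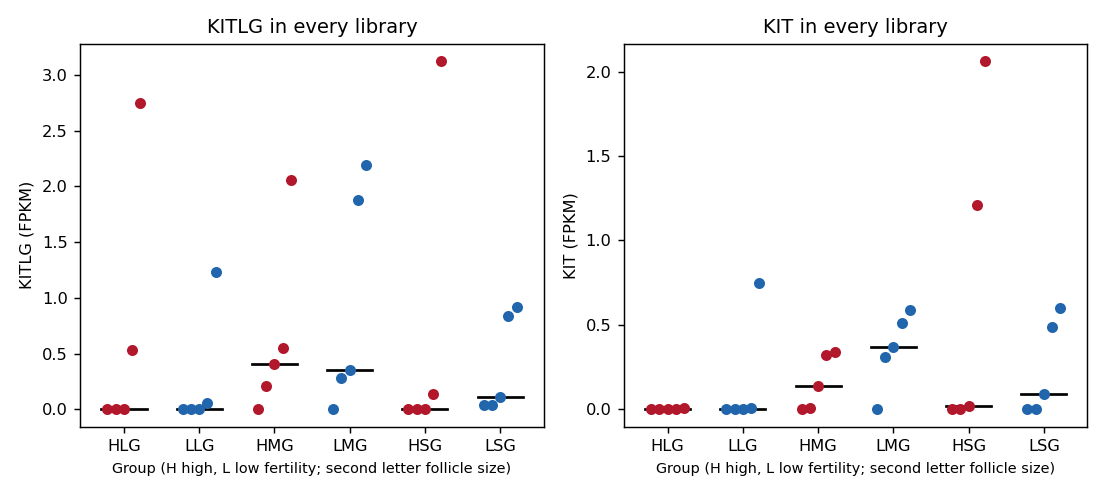
KITLG (left) and KIT (right) in FPKM for every library, in columns by group (H high and L low fertility, then L large, M medium or S small follicles). Each point is 1 library, ordered by value within its column, and the black line is the group median. Single libraries such as HSG-8 at 3.12 FPKM of KITLG stand above groups whose medians lie at or below 0.41 FPKM.

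Ligand and receptor were often seen in the same library. Both were above 0 in 14 libraries, KITLG alone in 5, KIT alone in 3 and neither in 8. In the 14 libraries with both, the KITLG level was the higher one in 11 and the KIT level in 3, namely LMG-5, LSG-7 and LSG-8. The ratio of KITLG to KIT in FPKM ranged from 0.0667 in LSG-7 to 21.0 in HMG-10, with a median of 1.63. Both ends of this range rest on very low values, KITLG at 0.04 FPKM in LSG-7 and KIT at 0.01 FPKM in HMG-10. At 2 decimals these ratios are imprecise. Over the 30 libraries, the Pearson correlation of their log2(FPKM + 1) values was 0.499, given as a description, since the points share the content of their library. Among features above 0 in at least 10 libraries, KIT was the 153rd of 5791 in its likeness to KITLG.

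Library content moved with both genes. Of the 15 libraries with the most features above 0 (5203 or more), 13 held KITLG and 13 held KIT. Of the other 15 libraries, 6 held KITLG and 4 held KIT. The 4 libraries with fewer than 1000 features above 0, LLG-5, LLG-7, LLG-10 and HSG-5 (a limit chosen after seeing the data), held KIT in none and KITLG in LLG-5 alone. In bulk samples such as these, fewer cells of a type and less RNA per cell cannot be told apart.

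**Figure D2:**
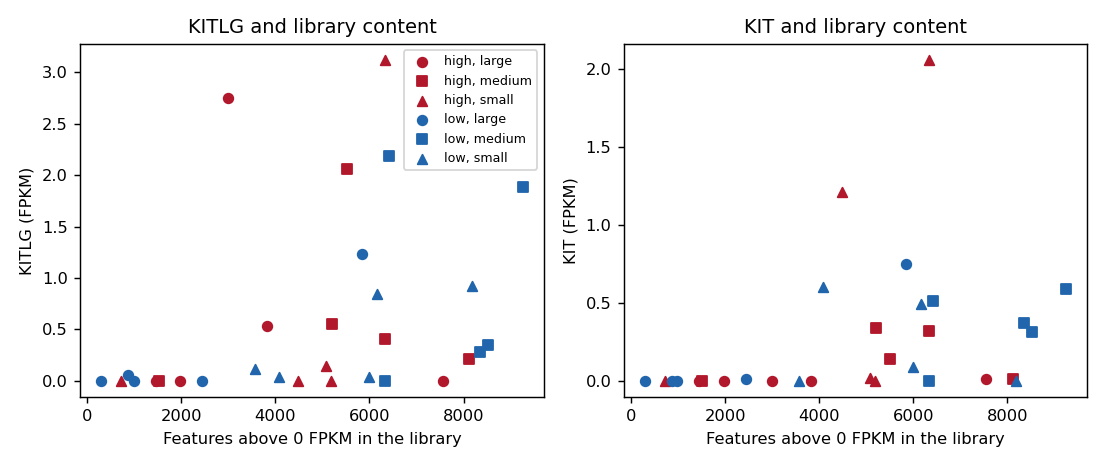
KITLG (left) and KIT (right) in FPKM against the number of features above 0 FPKM in the same library, 1 point per library, coloured by fertility class and shaped by follicle size. Of the 15 libraries with at most 5185 features, 9 lie at 0 for KITLG and 11 at 0 for KIT, whereas HLG-7 at 2.75 FPKM of KITLG and HSG-10 at 1.21 FPKM of KIT are the highest of those 15.

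The first question of the design was whether high and low fertility goats differ at the same follicle size. In large follicles the ligand was above 0 in 2 of 5 libraries of either class, and in medium follicles in 4 of 5 of either class. In small follicles it was seen in 2 of 5 libraries of HSG, against 5 of 5 of LSG. This contrast was the widest, yet it did not pass the test (two-sided Fisher's exact test, p = 0.167, adjusted p = 1.0 over 20125 features). Without the 4 libraries of fewest features KITLG stood in 2 of 4 HSG libraries, a difference of -50 instead of -60 percentage points. Above 1 FPKM its direction was the opposite, at 20 percentage points, since HSG-8 alone passed that limit. The same test called 0% of the features in each of the 3 contrasts, with 0.303%, 1.49% and 0.626% at an unadjusted p under 0.05 in large, medium and small follicles. KIT was seen in 1 HLG library against 2 of LLG, in 4 of 5 of both medium groups and in 3 of 5 of both small groups, with an exact p of 1.0 at each size. Without the 4 libraries of fewest features, KIT stood in 1 of 5 HLG and in 2 of 2 LLG libraries, a difference of -80 percentage points (Fisher's exact test, p = 0.143, adjusted 1.0).

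Levels were compared by limma on the log2(FPKM + 1) scale over 6058 features, where both genes passed the filter. This scale understates changes of low genes. KITLG differed by 0.26 ± 0.47 (SE) in HLG against LLG, by -0.19 ± 0.47 in HMG against LMG and by 0.029 ± 0.47 in HSG against LSG. KIT differed by -0.16 ± 0.29, -0.22 ± 0.29 and 0.28 ± 0.29 in the same order. All 6 differences were smaller than the spread between libraries (limma, adjusted p from 0.929 to 1), and the data leave wide limits. For KITLG in large follicles the 95% confidence interval ran from -0.69 to 1.2, and for KIT in small follicles from -0.30 to 0.86. Single libraries set the size of these differences. Without LLG-8 the KIT difference in large follicles was -0.00072, and without HLG-7 that of KITLG was -0.095. In medium follicles the KITLG difference was 0.025 without LMG-7. Without HSG-8 the differences in small follicles were -0.37 for KITLG and 0.018 for KIT. limma called 0% of features at each size, and 4.8%, 5.15% and 6.39% had an unadjusted p under 0.05.

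Averaged over sizes, neither gene differed between the fertility classes by more than the spread between libraries. KITLG was above 0 in 8 of 15 high and 11 of 15 low fertility libraries (exact test within sizes, p = 0.437, adjusted 1.0), and KIT in 8 of 15 and 9 of 15 (exact p = 1.0). The test called 0% of features, and 1.08% had an unadjusted p under 0.05. The mean level differed by 0.030 ± 0.27 for KITLG and by -0.032 ± 0.17 for KIT (SE, limma, adjusted p = 0.996 and 0.991), with intervals from -0.51 to 0.58 and from -0.37 to 0.30. limma called 0% of features here, with 3.95% at an unadjusted p under 0.05. The high minus low difference was not shown to vary with follicle size for either gene (F test of the interaction in limma, adjusted p = 0.976 for KITLG and 0.921 for KIT), a test that called 0% of features and gave 4.67% an unadjusted p under 0.05. The widest of the 6 interaction differences was -0.50 ± 0.41 (SE) for KIT, medium minus small (limma, adjusted p = 0.986). The separate interaction differences had 4.82% (large minus medium), 5.5% (large minus small) and 5.48% (medium minus small) of features at an unadjusted p under 0.05.

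**Figure D3:**
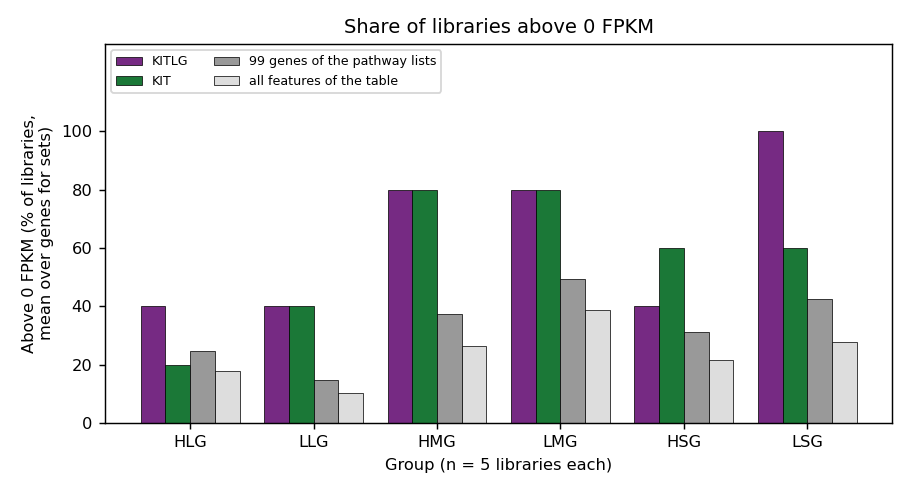
Share of the 5 libraries of each group above 0 FPKM, in percent, for KITLG and KIT, beside the mean share of the 99 pathway genes and of all 20125 features. KITLG and KIT reach 80% in both medium groups, where the mean over all features is 26.5% in HMG and 38.6% in LMG.

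The second question was whether the genes differ between follicle sizes. Both genes were above 0 least often in large follicles. KITLG was seen in 4 of 10 large, 8 of 10 medium and 7 of 10 small follicle libraries, and KIT in 3, 8 and 6 of 10. The same order held for all features, with 14.04% of values above 0 in large, 32.6% in medium and 24.7% in small follicle libraries. KIT in large against medium follicles was the nearest to the threshold (exact test within fertility classes, p = 0.0767, adjusted 0.659), a contrast in which 6.45% of features had an unadjusted p under 0.05 and 0% were called. For KITLG the exact test of the same contrast gave p = 0.182, adjusted 0.859. In large against small follicles the exact p was 0.361 for KITLG and 0.381 for KIT (0% of features called, 1.76% unadjusted), and in medium against small it was 1.0 and 0.639 (0% called, 1.11% unadjusted). Without the 4 libraries of fewest features, the difference between large and medium follicles was -37.1 percentage points for both genes, instead of -40 for KITLG and -50 for KIT.

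The fitted differences between sizes did not exceed the spread between libraries. In large against medium follicles KITLG differed by -0.32 ± 0.33 and KIT by -0.23 ± 0.20 (SE, limma, adjusted p = 0.686 and 0.637). The median difference of all features tested was -0.25, so that both genes lay near the bulk of the table. limma called 0% of features, and 11.5% had an unadjusted p under 0.05. When each library's number of features above 0 entered the fit, these differences turned to 0.10 ± 0.41 and 0.015 ± 0.25 (SE, limma, adjusted p = 0.994 and 0.997). In large against small follicles KITLG differed by -0.055 ± 0.33 and KIT by -0.33 ± 0.20 (adjusted p = 0.964 and 0.615 in limma, 0% of features called and 8.42% unadjusted), beside a median of -0.19 over all features tested. The KIT difference was -0.20 without HSG-8. In medium against small follicles the differences were 0.27 ± 0.33 and -0.10 ± 0.20 (adjusted p = 0.995 and 0.998 in limma, 0.0165% called and 5.13% unadjusted).

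**Figure D4:**
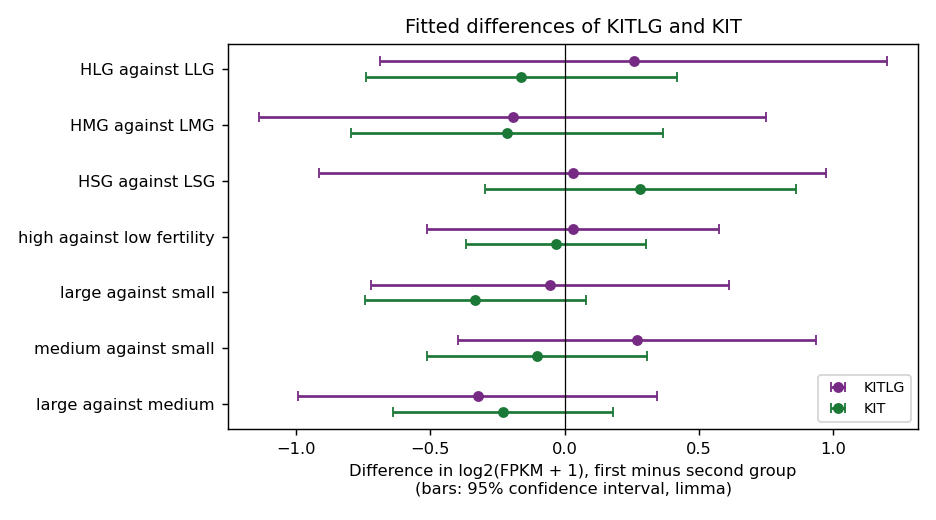
Difference in log2(FPKM + 1) of KITLG and KIT in 7 comparisons, as first minus second group. Points are limma estimates and bars 95% confidence intervals, and each bar crosses 0, as in KITLG between HLG and LLG from -0.69 to 1.2.

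Genes that act with KITLG and KIT were then examined by role. Of 106 genes in 7 lists, 99 were in the table, all of them above 0 in at least 1 library, with a median of 9 libraries above 0 against 5 over all features. The ligand's 19 libraries were reached by 14 of these genes and the receptor's 17 by 22. After the filter 46 were tested, and limma called 0 of them in each of the 7 comparisons. Between 2 and 5 of the 46 had an unadjusted p under 0.05, or 4.35% to 10.9%, where the share of all features tested ran from 3.95% to 11.5%.

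Adaptors and phosphatases bind the activated receptor or remove its phosphates. CBL, the ubiquitin ligase that sends KIT to degradation, and PTPN11, the phosphatase SHP2, were above 0 in 20 libraries each, and PTPRJ, a receptor phosphatase, in 19. In contrast, GRB2, the adaptor that links receptors to RAS (chosen after its values were seen), was above 0 in 4. PTPN11 gave -0.55 ± 0.27 in large against medium follicles (SE, limma, adjusted p = 0.429). Of the 8 genes tested in this list, this was the single one with an unadjusted p under 0.05 in any comparison of fertility or size.

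Among the cytosolic kinases linked to KIT, YES1 was above 0 in 17 libraries, FER in 14 and FYN in 11. The latter pair did not pass the filter. Of the 3 genes tested here, LYN (chosen after its values were seen), a kinase that binds KIT in blood cells, had an unadjusted p of 0.0302 in high against low fertility (0.62 ± 0.28 SE, limma, adjusted p = 0.952).

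The PI3K arm carries the survival signal of KIT, and FOXO proteins are its inhibited targets. PIK3CA, a catalytic subunit of PI3K, was above 0 in 20 libraries, 1 more than KITLG. limma called 0 of the 11 genes tested in this list in each comparison. For high against low fertility their median difference was 0.22 in large, -0.074 in medium and -0.16 in small follicles, beside 0.10, -0.074 and -0.092 over all features tested.

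In the RAS and MAPK arm, BRAF, a kinase below RAS, was above 0 in 21 libraries, RPS6KA3, a kinase at the end of the cascade, in 19 and NRAS in 18. RPS6KA3 gave -0.68 ± 0.27 in large against small follicles (SE, limma, adjusted p = 0.557), and NRAS gave 1.28 ± 0.62 in HMG against LMG (adjusted p = 0.951 in limma). NRAS stood at -1.20 ± 0.62 in HLG against LLG and at 0.040 ± 0.62 in HSG against LSG, and its large minus medium interaction of -2.48 ± 0.88 did not pass the threshold (limma, adjusted p = 0.924). The median over the 11 genes tested was -0.12 in large, 0.41 in medium and -0.15 in small follicles for high against low fertility, where that of all features tested was 0.10, -0.074 and -0.092. None of these genes passed the threshold in limma.

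Of the STAT, PLC and PKC arm, SOCS6, an inhibitor that binds KIT, and MITF, a transcription factor downstream of KIT in pigment cells, were above 0 in 19 libraries each, and SOCS5 in 18. MITF gave -0.59 ± 0.28 in large against medium follicles (SE, limma, adjusted p = 0.424). For high against low fertility, the 6 genes tested had a median difference of 0.34 in large, -0.064 in medium and -0.045 in small follicles, beside 0.10, -0.074 and -0.092 over all features tested.

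Signals that act on KITLG, or beside it, differed widely in how often they were seen. IGF1, a growth factor of the follicle, was above 0 in 21 libraries, HGF in 18 and its receptor MET in 12. In HLG 4 of 5 libraries held IGF1, against 1 of 5 in LLG, at a difference of 1.37 ± 0.61 (SE, limma, adjusted p = 0.976). All features together were above 0 in 17.7% of HLG and 10.4% of LLG values, and 3 of the 5 LLG libraries had fewer than 1000 features above 0. In the other sizes IGF1 gave 0.012 ± 0.61 (HMG against LMG) and -0.70 ± 0.61 (HSG against LSG). FGF7, of the same list and chosen after its values were seen, was above 0 in 10 libraries. It gave -1.28 ± 0.43 in HSG against LSG and -0.70 ± 0.25 in high against low fertility (SE, limma, adjusted p = 0.509 and 0.952). The oocyte factors that regulate granulosa cell KITLG were rare, with GDF9 in 6 libraries and BMP15 in 1. ADAM17, a protease known to shed KITLG, was above 0 in 6 libraries and MMP9, which has the same known role, in 1. These last 4 genes were named for their role, outside the rule.

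KIT belongs to the class III receptor tyrosine kinases. PDGFRA, a platelet-derived growth factor receptor of this class, was above 0 in 19 libraries, its ligand PDGFC in 12 and its ligand PDGFA in 8. The other receptors of the class, named after their values were seen, were rarer than KIT, with CSF1R in 6 libraries, PDGFRB in 3 and FLT3 in 2. KITLG and KIT were seen together in 14 libraries, of the 19 with KITLG. The other ligands of the class in the table were above 0 in at most 12 libraries, so none of their pairs could reach 14. IL34 and FLT3LG were not in the table. PDGFC and PDGFRA shared 10 libraries, PDGFA and PDGFRA 6, CSF1 and CSF1R 2, PDGFD and PDGFRB 2, and PDGFB and PDGFRB 0. PDGFRA gave 1.02 ± 0.40 in HLG against LLG (SE, limma, adjusted p = 0.976), one of 3 genes tested in this list.

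**Figure D5:**
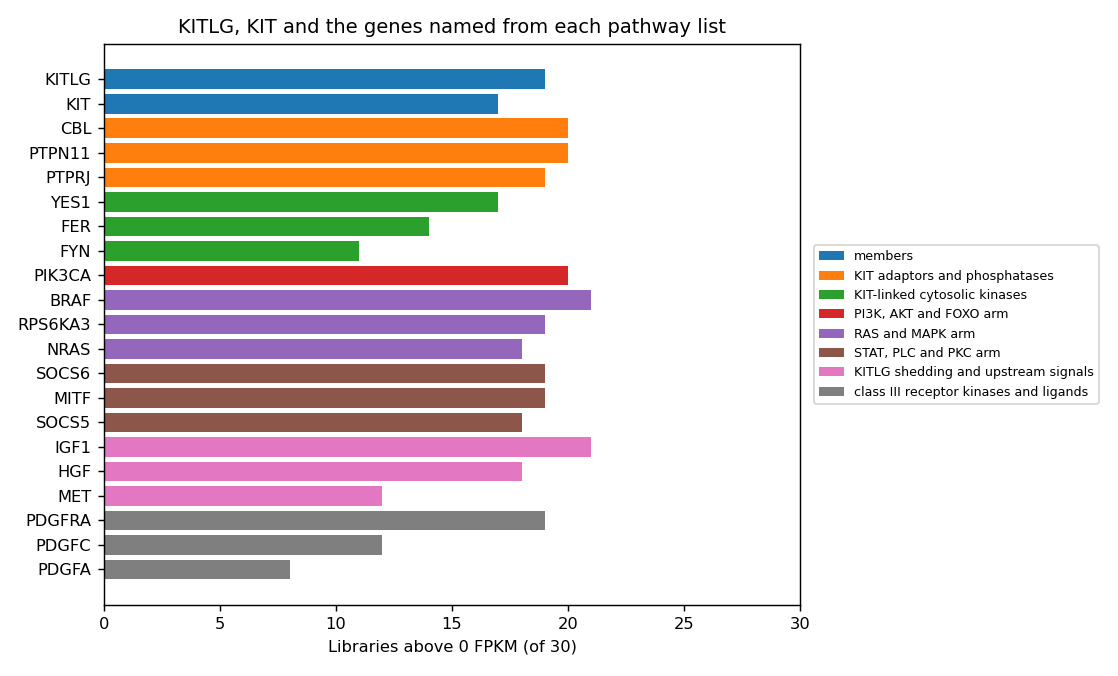
Number of libraries above 0 FPKM, of 30, for KITLG, KIT and the genes named from each pathway list, coloured by list. KITLG (19) and KIT (17) lie in the range of 8 to 21 libraries that these genes span.

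Markers of other cells that carry KIT were set beside the receptor. Of the oocyte markers, 7 of 11 were in the table, and their summed level ranged from 0 to 10.2 FPKM in a library. The highest sum, in LSG-9, was ZP3 alone. DDX4, a germ cell helicase, was above 0 in 7 libraries, GDF9 in 6, ZP2, ZP3 and DAZL in 2 each, and KPNA7 and BMP15 in 1 each. Of the theca and interstitial markers, 8 of 10 were in the table. PDGFRA was above 0 in 19 libraries and NR2F2 in 13. Outside the naming rule, COL1A1 was above 0 in 8, STAR in 7, LHCGR in 4, CYP11A1 in 3 and TCF21 in 1. CYP17A1, which defines androgen-making theca cells and was also named outside the rule, was above 0 in 1 library. The summed level of the theca and interstitial markers ranged from 0 to 38.7 FPKM. The highest sum was LHCGR alone, in HSG-5, a library with 719 features above 0. The study itself counts LHCGR among the typical markers of granulosa cells.

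Mast cell markers were in the table for 6 of 10 genes, led by CPA3 and HPGDS in 7 libraries each. Their sum reached 75.4 FPKM in LLG-9, where KIT was at 0.01 FPKM, and was at most 5.36 FPKM elsewhere. The sum in LLG-9 was CPA3 alone, with every other mast cell marker in the table at 0 there. Of the pigment cell markers, 6 of 6 were in the table, led by DCT in 3 libraries and TYR in 2. Their sum reached 5.2 FPKM in HSG-8, which was TYR alone. The highest KIT value, 2.06 FPKM in HSG-8, stood beside sums of 9.44 FPKM for oocyte markers, 5.2 FPKM for pigment cell markers and 0 for mast cell markers. The next, 1.21 FPKM in HSG-10, stood beside 0, 0 and 0.14 FPKM. Of the 17 libraries with KIT, 6 had no oocyte marker above 0, 4 no mast cell marker, 8 no pigment cell marker and 1 no theca or interstitial marker. Conversely, KIT was above 0 in 9 of the 9 libraries with a pigment cell marker and 11 of the 16 with an oocyte marker. It was above 0 in 13 of the 17 with a mast cell marker and 16 of the 25 with a theca or interstitial marker. Over all libraries KIT was above 0 in 17 of 30, and in 13 of the 15 with the most features above 0. In LLG-9, 1 of the 9 with a pigment cell marker, KIT was at 0.01 FPKM and the pigment cell sum at 0.04 FPKM. The sums were 0 for pigment cell markers in all 5 HLG libraries and 0 for oocyte markers in all 5 LLG libraries. By group, the median oocyte sum was between 0 and 0.25 FPKM, the median mast cell sum between 0 and 1.48 FPKM and the median theca and interstitial sum between 0 and 2.17 FPKM. The part of these cells in the KIT values was not tested.

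Endothelial markers were led by KDR in 14 libraries and PECAM1 in 6, and leukocyte and erythroid markers by CD14 in 8 and PTPRC in 6. All 6 endothelial markers and 6 of the 8 leukocyte and erythroid markers were in the table. KIT was above 0 in 15 of the 22 libraries with an endothelial marker and in 11 of the 15 with a leukocyte or erythroid marker. Over all libraries it was above 0 in 17 of 30. The part of endothelial and blood cells was not tested either.

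Genes whose pattern over the 30 libraries was most like that of each member were named among 5791 other features above 0 in at least 10 libraries. For KITLG these were LOC102169506 (Pearson correlation of log2(FPKM + 1) of 0.780), GLG1 (0.777), a Golgi protein, and MGAT5 (0.738), a glycosyltransferase. They were above 0 in 16, 13 and 14 libraries, of which 13, 10 and 10 also held KITLG. For KIT they were GLTSCR1L (0.746), LOC102173923 (0.717) and PARPBP (0.716), above 0 in 15, 13 and 10 libraries, of which 12, 10 and 7 also held KIT. These features are the 3 with a gene symbol that ranked highest for each member, at ranks 1, 4 and 5 for KIT. The correlations were picked from many, over points that share library content, and they describe these libraries only.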

How the data were processed

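Total RNA of granulosa cells was sequenced after rRNA removal. As the methods describe, reads with a single match were retained by the authors, who took out duplicates (picard), computed FPKM with Cufflinks 2.2.1 and deposited these FPKM values with 2 decimals. Neither aligner nor genome build is given in the sources used here, so no coordinates are printed, and no sequences were used. Although Ensembl is the annotation named, features carry NCBI gene numbers, of which 17945 of 17946 matched the RefSeq gene table of the assembly ARS1.2. The other 2179 features carry no such number. Read totals were not used here, and the number of fragments behind a value was not derived.

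Levels were compared with limma 3.58.1 (R 4.3.3) on log2(FPKM + 1). A single fit held the 6 groups, with a robust and trended prior and features above 0.5 FPKM in at least 5 libraries. Adjusted p-values follow Benjamini and Hochberg with a threshold of 0.05, and tests were two-sided. Libraries above 0 FPKM were compared by Fisher's exact test, or by an exact test conditional on the totals of each stratum, over all features (Python 3.11.15, scipy 1.17.1). The limma step was tried on simulated normal values shifted to stay above 0, whereas many values of these data are 0. It therefore does not show how the fit behaves on such data. The exact test was checked against a standard Fisher's exact test and a full enumeration of small tables. The members and lists were chosen with earlier results of these data known. Both members, the 3 genes of each pathway list and the 2 genes of each marker list above 0 in most libraries, and the 3 features with a symbol most like each member were named. Alternatives were another pseudocount, other filters and limits, a replicate block, sample weights, a covariate, rescaling and leaving out libraries.

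Libraries with the same number in the labels were not paired, since nothing says that a number marks an animal or a day. A few genes that the naming rule picks are not reported here.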

Additional observations from a re-analysis of the deposited data

Results flagged for a closer look

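In each group of 5 libraries, a library whose distance from the nearest other value took over 0.71 of the group's range was sought for both genes. Of the 12 sets searched, 6 held one. Chance picks out about 1 set in 20 of normally distributed values, a rate that does not hold for sets such as these, in which several libraries are at 0. For KITLG these were HLG-7 (2.75 FPKM, next value 0.53), HMG-5 (2.06 FPKM, next 0.55), HSG-8 (3.12 FPKM, next 0.14) and LLG-8 (1.23 FPKM, next 0.06). For KIT these were LLG-8 (0.75 FPKM, next 0.01) and HLG-10, at 0.01 FPKM beside 4 libraries at 0. LLG-8 stood out for both genes, and it was the one LLG library among the 15 libraries with the most features above 0 (5843). In each case the far library was the highest of its group.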

How the results depend on the processing

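Over 36 results on KITLG and KIT, 1143 alternative values were computed, and 0 passed an adjusted p of 0.05 (lowest 0.242). The sign turned in 51 of them, 24 of which came from settings other than leaving out 1 library. The replicate block left the differences as they were and changed no call on the members (KIT in large against small follicles, -0.33, adjusted p = 0.623 in limma), while the single feature called in medium against small was lost. Same-numbered libraries deviated from their group means with correlations from -0.0335 to 0.124, so the numbers were not taken as pairs.

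Without the 4 libraries of fewest features, a setting chosen after seeing the data, KITLG turned to -0.074 in HLG against LLG, -0.043 in high against low fertility and 0.054 in large against small, and the interaction differences to -0.22 (KITLG, large minus small) and -0.19 (KIT, large minus medium). Without the 4 libraries that the study's list of mapping rates leaves out, these were 0.020 (KITLG, large against small) and -0.054 (KIT, large minus medium). With features above 0 as a covariate, KITLG turned to 0.083 in HMG against LMG, 0.19 in large against small, 0.10 in large against medium and -0.082 in the large minus small interaction, and KIT to 0.016 in high against low fertility, 0.015 in large against medium and -0.20 in the large minus medium interaction. With a pseudocount of 0.1, KITLG turned to -0.47 in HSG against LSG, -0.072 in high against low fertility and 0.11 in the medium minus small interaction, and KIT to 0.057 in medium against small. Sample weights gave -0.0092 for KITLG in HSG against LSG. In libraries above a limit, 1 FPKM turned KITLG to 20 percentage points in HSG against LSG and 10 in large against small, and KIT to 13.3 in high against low fertility and -20 in medium against small, which was -10 at 0.5 FPKM. The causes were not tested.

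Leaving out single libraries, KITLG ranged from -0.095 to 0.48 (HLG against LLG), -0.45 to 0.025 (HMG against LMG), -0.37 to 0.16 (HSG against LSG), -0.10 to 0.11 (high against low), -0.23 to 0.14 (large against small), -0.12 to 0.63 (interaction, large minus small) and -0.48 to 0.18 (medium minus small). KIT ranged from -0.12 to 0.022 (high against low), -0.17 to 0.029 (medium against small) and -0.0071 to 0.22 (interaction, large minus medium). Over all features, limma called 0 or 1 in each comparison, and up to 15 (HLG against LLG without the 4 libraries of fewest features) or 12 (large against medium with sample weights). KITLG and KIT were not among them. The depth behind single values is unknown here, and 0 FPKM may be a missed gene.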
